A study of Mus musculus with 16 samples.

Results

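Glycolysis turns glucose into pyruvate in the cytosol, and lactate dehydrogenase reduces pyruvate to lactate, which returns the NAD+ that the pathway needs. Lactate production has been described as a mark of hair follicle stem cells (HFSCs). These cells of the follicle's bulge rebuild the hair shaft and are quiescent in the skin's resting phase. The 10 genes followed here cover the route from glucose uptake to lactate: the glucose transporter Slc2a1, hexokinase Hk2, glucose-6-phosphate isomerase Gpi1, the phosphofructokinase subunits Pfkl and Pfkp, aldolase Aldoa, phosphoglycerate kinase Pgk1, enolase Eno1, pyruvate kinase Pkm and the lactate dehydrogenase A subunit Ldha. They were taken by symbol from the 32989 gene identifiers of the count table, and all 10 passed the limit on low counts.

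Messenger RNA was measured in HFSC organoids of 4 C57BL/6J mice, grown in three-dimensional culture for 2 weeks and then sorted on integrin α6 and CD34 into progenitors (α6+/CD34−) and HFSCs (α6+/CD34+). Each mouse gave 1 library of each fraction without treatment and 1 of each fraction after 72 h with N1-acetylspermidine (N1-AcSpd, an acetylated polyamine), which makes 16 libraries in 4 groups. All groups shared the same culture medium, which held the kinase inhibitor Y27632 and the growth factors VEGF and FGF2, so they model cultured cells and not the follicle in the skin. In these organoids the study reported higher uptake of EdU, its measure of proliferation, in untreated α6+/CD34+ HFSCs than in progenitors. The study isolated cells from telogen mice of both sexes, and the labels give no age for these 4 mice. Titles of the untreated libraries carry WT, for wild type, and the titles name no other genotype. In every sorted fraction, fewer cells of a type and less RNA per cell cannot be told apart.

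Within 250 bases before their annotated starts, 9 of the 10 genes, all but Gpi1, held the core letters of a hypoxia response element, the motif bound by hypoxia-inducible factors. The core was searched as ACGTG or GCGTG on both strands, and 41.5% of 27025 genes with a window in the RefSeq set of GRCm38.p6 held it too. An E-box (CACGTG, which overlaps the core letters) stood in 1 of the 10 genes, Ldha, against 6.9% of all genes, and a GC box (GGGCGG) in 9 of 10, against 35.4%. The 10 genes had 16 annotated windows between them. The windows below belong to the 3 genes called in both comparisons of the cell fractions (edgeR's quasi-likelihood test, Benjamini-Hochberg adjusted p under 0.05 over all tested genes), Hk2, Pfkp and Ldha, and are shown for their hypoxia response element cores. They read 5′ to 3′ on the gene's strand and end 1 base before the annotated start, with capitals for the core letters of either strand, and Ldha has 2 annotated starts.
Hk2, chr6:82774455-82774704, minus strand: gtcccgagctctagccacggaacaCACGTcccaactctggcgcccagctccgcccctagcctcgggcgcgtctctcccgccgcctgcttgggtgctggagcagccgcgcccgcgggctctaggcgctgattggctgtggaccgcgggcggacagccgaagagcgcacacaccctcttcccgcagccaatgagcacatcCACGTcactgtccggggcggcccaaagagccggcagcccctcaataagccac
Pfkp, chr13:6648772-6649021, minus strand: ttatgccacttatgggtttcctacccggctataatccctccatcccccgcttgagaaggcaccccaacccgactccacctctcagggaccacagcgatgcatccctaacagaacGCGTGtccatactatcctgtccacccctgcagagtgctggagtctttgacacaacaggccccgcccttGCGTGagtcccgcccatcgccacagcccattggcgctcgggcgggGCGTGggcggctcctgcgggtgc
Ldha, chr7:46845554-46845803, plus strand: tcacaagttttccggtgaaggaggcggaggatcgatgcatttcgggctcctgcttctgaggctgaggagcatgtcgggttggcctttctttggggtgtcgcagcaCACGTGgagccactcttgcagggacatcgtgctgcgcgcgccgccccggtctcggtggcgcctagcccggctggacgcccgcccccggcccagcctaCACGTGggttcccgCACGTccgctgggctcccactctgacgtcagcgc
Ldha, chr7:46846832-46847081, plus strand: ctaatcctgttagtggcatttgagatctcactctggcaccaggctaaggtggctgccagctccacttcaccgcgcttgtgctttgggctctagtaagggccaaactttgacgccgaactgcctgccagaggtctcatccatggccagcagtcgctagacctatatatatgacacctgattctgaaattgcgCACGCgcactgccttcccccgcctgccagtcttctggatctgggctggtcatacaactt
The upstream Ldha window held 5 matches, but at 3 places. Each of its 2 E-boxes reads the same on both strands and counts as 2 matches. The other Ldha window held 1. Hk2 had 2 matches and Pfkp 3, each at a place of its own. A match is only a match of letters.

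The libraries held 15480075 to 29074855 counted molecules. Cd34, the sort marker, lay at 2.88 to 3.65 CPM (counts scaled to a common library total after TMM scaling, which sets libraries to a common level by the genes that differ least) in the CD34− fraction and at 43.4 to 64.1 CPM in the CD34+ fraction. The 8 HFSC markers, Cd34 among them, summed to 65.8 to 94.8 CPM in CD34− and 375.6 to 626 CPM in CD34+ libraries. Krt15 made up most of the CD34+ sums, with means of 393 CPM without and 300.4 CPM with treatment. Lgr5 (means of 4.72 and 5.14 CPM in untreated CD34− and CD34+ cells) and Tcf7l1 overlapped between the fractions in both conditions. The others were higher in CD34+ cells without overlap. The 10 markers of differentiated epidermis, led by Krtdap and Sbsn, moved the other way, with sums of 1054 to 1616 CPM in CD34− and 300.4 to 408.6 CPM in CD34+ libraries, and the 5 keratinocyte and basal markers summed to 5806 to 7030 CPM over all libraries. Their part in the differences below was not tested. Marker sums of fibroblasts stayed under 1.53 CPM and those of immune cells under 5.92 CPM, most of it Itgam. Among 7 melanocyte markers Mitf and Pmel carried nearly all of a sum of 28.02 to 36.1 CPM, with Tyr and Tyrp1 at or near 0. Among endothelial and red blood cell markers Kdr and the globins were at or near 0 while Pecam1 stood at 1687 to 2055 CPM.

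Several of these genes share counts with other loci, so each was searched for annotated transcripts that match it over at least 100 bases at 90% identity or more. Matches under 300 bases are called short here and were not counted as copies, although some belong to genes with more counts than the member. Gpi1 had 204 short matches of 205, of which Rabgap1 (157 bases) held 1334% of its count, Ldha had 24 of 41, led by Ssh2 (113 bases, 127% of its count), and Pfkl had 11 of 11. Hk2 had 0 matches, and Pgk1 had 4, none of which carried counts here. Among longer matches, Ldha had 14 copies with counts, but together they held 0.624% of its own count and none reached 1%. The copies of Aldoa held 3.02% of its count, Gm5276 most of it, and those of Pkm 8.98%, of which Gm6560 held 4.90% and Gm6992 3.43%. The copy of Gpi1, Gm1840, held 4.16% and was at 0 in 6 libraries, while its share lay between 5.51% and 6.87% in the 10 others.

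Eno1 was the gene most entangled with its copies, which held 76.1% of its count. Eno1b, annotated as protein coding and 99.48% identical over 1736 bases, was at 0 in 3 libraries and at 72.2% to 73.96% of the Eno1 count in the other 13. The processed pseudogene Gm4735, 99.62% identical over 1302 bases, was at 0 in 4 other libraries and at 17.4% to 19.5% in the other 12. The libraries with Eno1b at 0 were those of N1-AcSpd CD34+ mice 1 and 4 and of untreated CD34− mouse 4, and those with Gm4735 at 0 were N1-AcSpd CD34− mice 1 and 2 and mouse 3 of both untreated fractions. Eno1 itself lay between 410.4 and 454 CPM where Eno1b was at 0 and between 378 and 459 CPM elsewhere, and between 378 and 441 CPM where Gm4735 was at 0 and 395 and 459 CPM elsewhere, so the ranges overlapped. Gm5855 and Gm8483 held a further 2.99% and 1.08%. Counts at Eno1 are therefore uncertain as a measure of that locus alone, and its copies are left out of the values below unless stated.

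**Figure D1:**
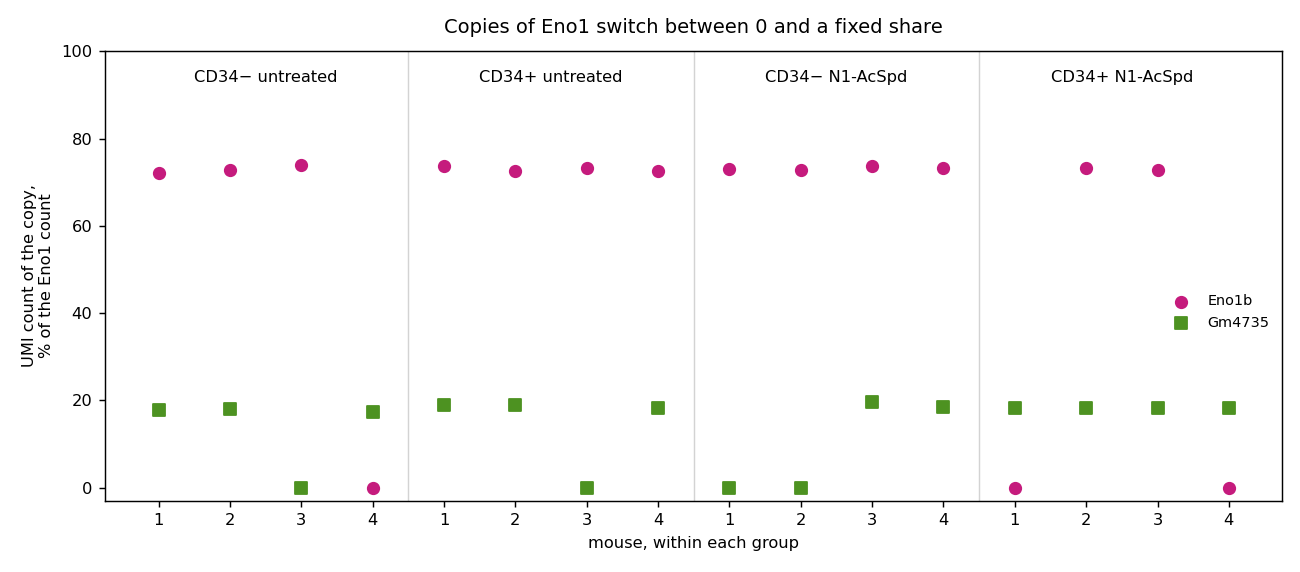
UMI counts of 2 copies of Eno1 as a percentage of the Eno1 count in each of the 16 libraries, by group and mouse. Eno1b lies at 0 in 3 libraries and otherwise between 72.2% and 73.96%, and Gm4735 at 0 in 4 libraries and otherwise between 17.4% and 19.5%.

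Genes that overlap a member were checked as well. Gm12868, annotated on the strand opposite to Slc2a1, had 99.6% to 99.8% of the Slc2a1 count in every library, so the counts of the pair cannot be told apart and Slc2a1 is uncertain in that sense. Pitrm1, on the strand opposite to Pfkp, had 11.9% to 18.9% of its count. Pitrm1 itself was not called between the fractions in untreated cells (log2 fold change 0.027, SE 0.051, edgeR adjusted p 0.765). Gm26762 opposite Gpi1 had 1.84% to 3.10%, and the other overlapping genes held under 1%.

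The comparison of α6+/CD34+ HFSCs with α6+/CD34− progenitors asks how far the pathway's RNA separates stem cells from their progeny. In untreated cells 4 of the 10 genes were called at an edgeR adjusted p under 0.05, where 32.1% of all 19049 tested genes were called. Lower in HFSCs were Hk2, Pkm and Ldha (3 of 10, against 16.1% of all genes), and higher was Pfkp (1 of 10, against 16.1%). The median log2 fold change was -0.097 over the 10 genes and 0.022 over all genes. Only Hk2 differed by more than 0.5 on the log2 scale. The groups did not overlap in 6 of the 10 genes, and in 32.2% of all genes. With mouse as a replicate block 6 of the 10 were called, 1 higher and 5 lower, against 6484 of all genes. DESeq2 gave the same counts for the 10, against 5934 of all genes.

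In N1-AcSpd-treated cells 5 of the 10 genes were called, where 33.3% of all genes were. Slc2a1, Pfkp and Pgk1 were higher in HFSCs (3 of 10, against 16.5% of all genes), and Hk2 and Ldha were lower (2 of 10, against 16.8%). The median was 0.0023 over the 10 genes and -0.0068 over all genes, and the groups did not overlap in 5 of the 10 genes and in 34.4% of all genes. Scaling by library totals in place of TMM shifted the median of all genes to 0.14 in untreated and 0.11 in N1-AcSpd cells. Changing the scaling moves every gene of a comparison by nearly the same amount. Values measured from the median of all genes therefore return close to those with TMM, and that all 10 genes then kept their sign was fixed in advance. Without that correction 7 and 6 of the 10 genes kept their sign in untreated and N1-AcSpd cells. Counted without that correction, library totals called 3 of the 10 genes higher and 2 lower in HFSCs in untreated cells (median 0.019). In N1-AcSpd cells they called 4 higher and 1 lower (median 0.12). Of all genes called with library totals, 73.4% and 71.6% were higher, so the balance of directions among the called genes rests on the scaling.

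**Figure D2:**
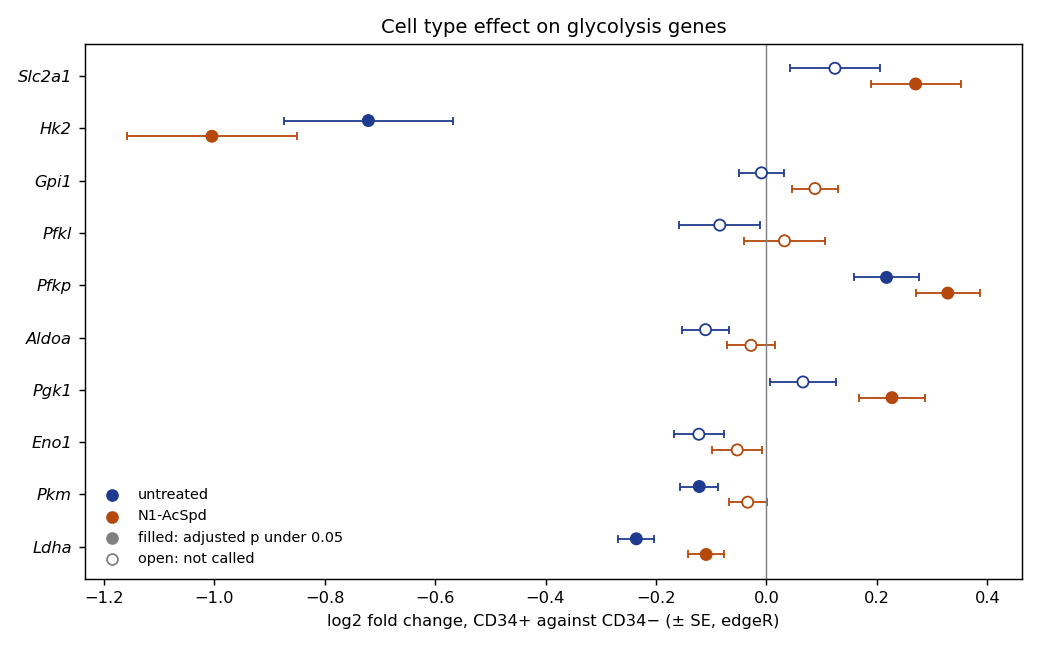
Log2 fold change of the 10 genes between α6+/CD34+ and α6+/CD34− cells, with bars of 1 SE from the edgeR fit, in untreated and in N1-AcSpd-treated cells. Hk2 lies farthest below 0 in both conditions (-0.72 and -1.004), Ldha below 0 with a smaller value (-0.24 and -0.11; the latter is 0.0080 with library totals), and Pfkp above 0 (0.22 and 0.33).

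Slc2a1, also called GLUT1, is a facilitative transporter that lets glucose into cells. Slc2a1 (ENSMUSG00000028645, chromosome 4, 119108711 to 119137983 on GRCm38, plus strand) stood at 157, 136, 161 and 144 CPM in untreated CD34− libraries of mice 1 to 4 and at 169, 148, 169 and 165 CPM in untreated CD34+ libraries. The groups overlapped, although the CD34+ value was the higher one in 4 of 4 mice, and the log2 difference of 0.12 (SE 0.081, adjusted p 0.285 by edgeR) did not pass. With library totals it stood at 0.24 and passed (edgeR adjusted p 0.0304). With N1-AcSpd it stood at 166, 144, 151 and 151 CPM in CD34− and 187, 168, 169 and 215 CPM in CD34+ libraries. These groups did not overlap, with mouse 4 highest among CD34+ libraries, and the log2 difference of 0.27 (SE 0.081, adjusted p 0.0197 by edgeR) passed. The call was lost without the CD34+ library of mouse 4 (log2 0.19, edgeR adjusted p 0.0632), without the CD34− library of mouse 2 (0.24, edgeR adjusted p 0.0587), or without mouse 1 (0.31) or mouse 4 (0.18).

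Hexokinase traps glucose in the cell as glucose-6-phosphate, and Hk2 is its inducible isoform. Hk2 (ENSMUSG00000000628, chromosome 6, 82725025 to 82774454 on GRCm38, minus strand) had the largest difference of the 10 genes in both conditions. Untreated CD34− libraries of mice 1 to 4 had 51.9, 37.8, 48.2 and 44.9 CPM and untreated CD34+ libraries 28.2, 24.4, 30.4 and 27.9 CPM. All 4 CD34+ values lay below all 4 CD34− values, with a log2 difference of -0.72 (SE 0.15, adjusted p 0.00249 by edgeR). After N1-AcSpd the CD34− libraries had 77.2, 46.2, 61.3 and 50.7 CPM and the CD34+ libraries 31.5, 23.5, 30.4 and 31.9 CPM. Again no values overlapped, mouse 1 being the highest of the CD34− libraries, and the log2 difference of -1.004 (SE 0.15, adjusted p 0.000186 by edgeR) amounted to 0.499 of the progenitor level. Hk2 kept its call in both conditions under all 28 alternatives, with log2 fold changes from -0.80 to -0.60 in untreated and from -1.11 to -0.85 in N1-AcSpd cells. The difference had the direction of the markers of differentiated epidermis, whose sums are given above, and their part in it was not tested.

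The next steps are the isomerase Gpi1, which makes fructose-6-phosphate, and phosphofructokinase, whose liver-type (Pfkl) and platelet-type (Pfkp) subunits form the enzyme of the pathway's committed step. Gpi1 (ENSMUSG00000036427, chromosome 7, 34201330 to 34230336 on GRCm38, minus strand) was nearly level, at 157, 158, 159 and 159 CPM in untreated CD34− and 162, 149.9, 155 and 162 CPM in untreated CD34+ libraries. Its log2 difference of -0.0090 (SE 0.041, adjusted p 0.915 by edgeR) was 0.11 with library totals, which turned the sign, and neither passed. In N1-AcSpd cells its CPM ran from 146 to 159 in CD34− and from 153 to 173 in CD34+ libraries, with a log2 difference of 0.088 (SE 0.041, adjusted p 0.121 by edgeR), and 4 of 4 mice had the higher value in CD34+ cells. With mouse as a replicate block this passed (log2 0.087, SE 0.029, edgeR adjusted p 0.0382), as it did with library totals (0.20, edgeR adjusted p 0.00179) and without the CD34+ library of mouse 2 (0.12, edgeR adjusted p 0.0404).

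Pfkl (ENSMUSG00000020277, chromosome 10, 77986947 to 78010083 on GRCm38, minus strand) ranged from 26.3 to 33.8 CPM over the untreated libraries and from 27.3 to 31.9 CPM over the treated ones, and the fractions overlapped in both conditions. Its log2 difference of -0.084 (SE 0.073, adjusted p 0.443 by edgeR) in untreated cells (0.032 with library totals) and its log2 difference of 0.033 (SE 0.073, adjusted p 0.809 by edgeR) in treated cells did not pass. Pfkp went the other way from Hk2. Pfkp (ENSMUSG00000021196, chromosome 13, 6579768 to 6648777 on GRCm38, minus strand) had 84.8, 77.0, 76.9 and 79.3 CPM in untreated CD34− libraries and 96.7, 91.7, 86.8 and 94.7 CPM in untreated CD34+ libraries. The groups did not overlap, and the log2 difference of 0.22 (SE 0.058, adjusted p 0.0106 by edgeR) passed (0.33 with library totals), though not without mouse 2 (log2 0.21, edgeR adjusted p 0.0535) or without mouse 4 (0.20, edgeR adjusted p 0.0679). N1-AcSpd CD34− libraries had 79.0, 68.4, 68.8 and 68.8 CPM and CD34+ libraries 91.4, 82.6, 88.7 and 95.2 CPM. Here too no values overlapped, and the log2 difference of 0.33 (SE 0.058, adjusted p 0.000571 by edgeR) passed. It also passed under all 28 alternatives, none of which asked for a minimum fold change.

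Aldolase splits the sugar phosphate, phosphoglycerate kinase makes the first ATP of the pathway and enolase prepares the second. Aldoa (ENSMUSG00000030695, chromosome 7, 126795234 to 126800751 on GRCm38, minus strand) had 444, 424, 433 and 442 CPM in untreated CD34− and 394, 408, 392 and 419.8 CPM in untreated CD34+ libraries. The groups did not overlap, yet the log2 difference of -0.11 (SE 0.043, adjusted p 0.0666 by edgeR) missed the threshold. It passed with mouse as a replicate block (log2 -0.11, SE 0.034, edgeR adjusted p 0.0281), in DESeq2 (-0.13, adjusted p 0.00948) and in 9 of 28 alternatives in all, and with library totals it stood at 0.0054. After N1-AcSpd it ran from 427 to 463 CPM in CD34− and from 408 to 470.4 CPM in CD34+ libraries, with a log2 difference of -0.028 (SE 0.043, adjusted p 0.703 by edgeR).

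Pgk1 (ENSMUSG00000062070, chromosome X, 106187100 to 106203699 on GRCm38, plus strand) had 415, 429, 387 and 416 CPM in untreated CD34− and 426, 419, 413 and 467 CPM in untreated CD34+ libraries, which overlapped, and the log2 difference of 0.066 (SE 0.060, adjusted p 0.466 by edgeR) did not pass, while with library totals it stood at 0.18 and passed (edgeR adjusted p 0.0407). With N1-AcSpd it had 397, 352, 374 and 398 CPM in CD34− and 445, 403, 441 and 490.4 CPM in CD34+ libraries. All CD34+ values then lay above all CD34− values, with a log2 difference of 0.23 (SE 0.060, adjusted p 0.00903 by edgeR), a call lost without mouse 3 (log2 0.22, edgeR adjusted p 0.0520), and 0.34 with library totals. Eno1 (ENSMUSG00000063524, chromosome 4, 150236721 to 150248879 on GRCm38, plus strand) had 428, 445, 419 and 454 CPM in untreated CD34− and 395, 414, 378 and 417 CPM in untreated CD34+ libraries. No values overlapped, the log2 difference of -0.12 (SE 0.045, adjusted p 0.0536 by edgeR) narrowly missed, and the replicate block brought it past the threshold (log2 -0.12, SE 0.035, edgeR adjusted p 0.0185), as did 8 of 28 alternatives in all. With its copies summed in, Eno1 stood at 0.036 (SE 0.16, edgeR adjusted p 0.916), so even the sign rests on whether the copies are counted. Among the untreated libraries Eno1b, its largest copy, was at 0 in CD34− mouse 4 only. In N1-AcSpd cells the log2 difference of -0.053 (SE 0.045, adjusted p 0.430 by edgeR) did not pass, and it was 0.064 with library totals.

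Pyruvate kinase closes glycolysis, and Ldha then turns pyruvate into lactate. Pkm (ENSMUSG00000032294, chromosome 9, 59656368 to 59679375 on GRCm38, plus strand) had 768, 778, 765 and 801 CPM in untreated CD34− and 715, 714, 701 and 730.5 CPM in untreated CD34+ libraries. All CD34+ values were lower, with a log2 difference of -0.12 (SE 0.034, adjusted p 0.0143 by edgeR) that shrank to -0.0063 (edgeR adjusted p 0.940) with library totals. The call was also lost without mouse 1 (log2 -0.13, edgeR adjusted p 0.0737) or mouse 3 (-0.12, edgeR adjusted p 0.0641). After N1-AcSpd the CD34− libraries had 793, 767, 771 and 805 CPM and the CD34+ libraries 762, 717, 762 and 822 CPM, which overlapped, with a log2 difference of -0.034 (SE 0.034, adjusted p 0.517 by edgeR) and a value of 0.083 with library totals. Gene-level counts do not separate the M1 and M2 splice forms of Pkm.

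Ldha (ENSMUSG00000063229, chromosome 7, 46841475 to 46855627 on GRCm38, plus strand) had the smallest adjusted p of the 10 genes in untreated cells. Untreated CD34− libraries of mice 1 to 4 had 1359.7, 1330.3, 1341 and 1413 CPM, a mean of 1361 ± 36.6 (SD, n = 4). Untreated CD34+ libraries had 1139, 1136, 1174 and 1174 CPM, a mean of 1156 ± 21.2 (SD, n = 4). The fractions stood well apart, HFSCs holding 0.849 of the progenitor level, with a log2 difference of -0.24 (SE 0.032, adjusted p 9.08e-05 by edgeR). That call held under all 28 alternatives, none of which asked for a minimum fold change, with values from -0.26 to -0.12. After N1-AcSpd the CD34− libraries had 1348, 1352, 1357 and 1457 CPM and the CD34+ libraries 1261, 1215, 1316 and 1319.8 CPM. The values still did not overlap, but the gap was narrower, with a log2 difference of -0.11 (SE 0.032, adjusted p 0.0180 by edgeR) that was 0.0080 with library totals (-0.10 measured from the median of all genes). This call was lost when only the 8 compared libraries were fitted (log2 -0.093, edgeR adjusted p 0.101), without the CD34+ library of mouse 1 (-0.085, edgeR adjusted p 0.0954) or mouse 2 (-0.085, edgeR adjusted p 0.0588), without the CD34− library of mouse 4 (-0.082, edgeR adjusted p 0.0587), and without mouse 1 (-0.11) or mouse 2 (-0.095).

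**Figure D3:**
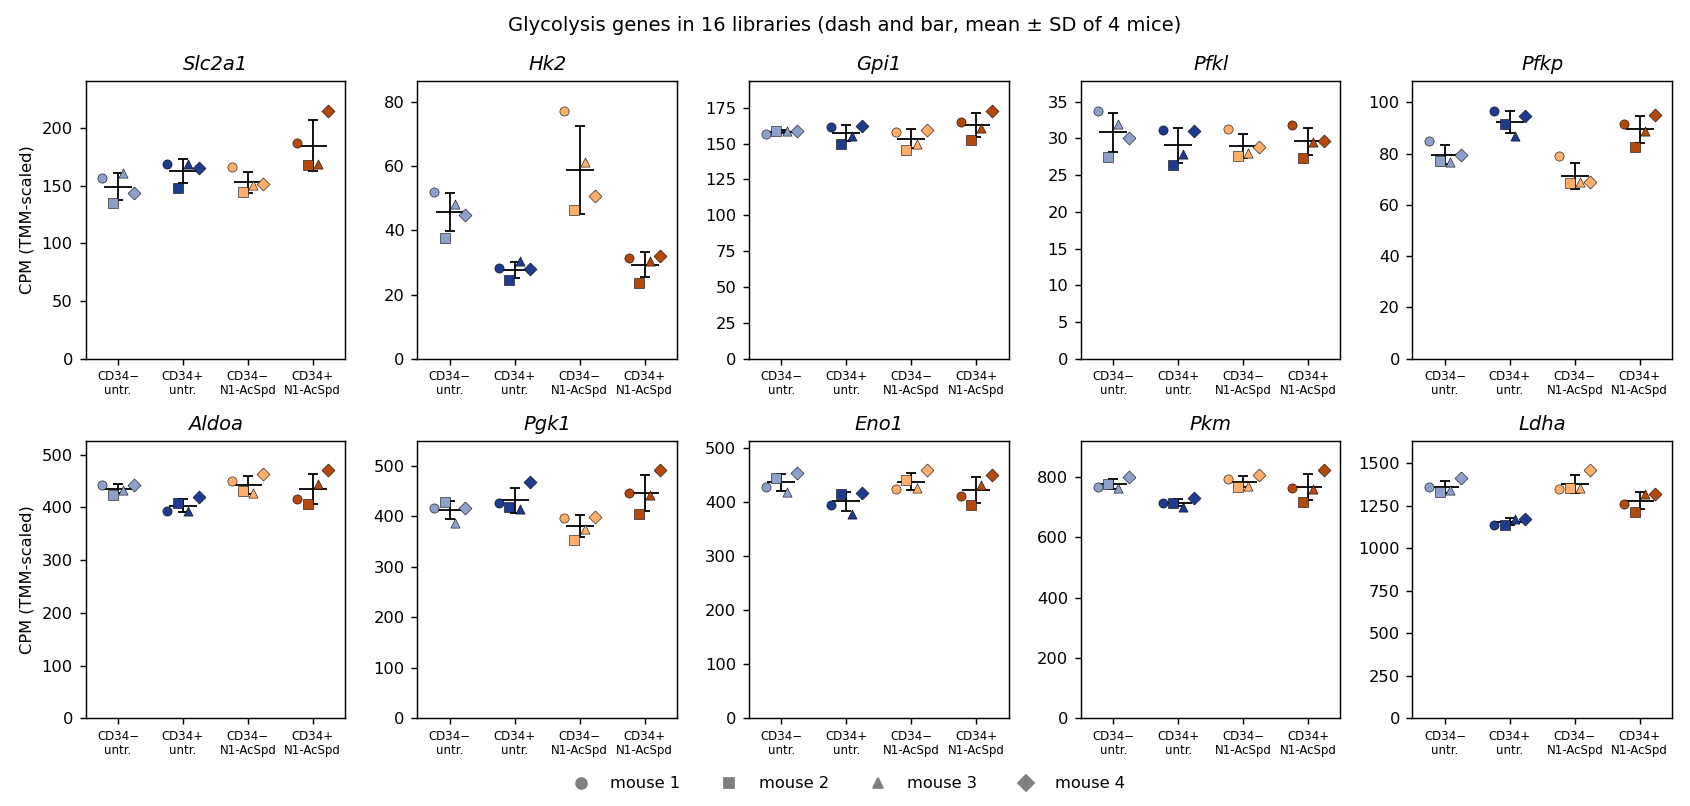
CPM of the 10 genes in the 16 libraries, 1 panel per gene with the axis starting at 0, each mouse with its own symbol, and a dash and bar for mean ± SD of 4 mice per group. Hk2 shows the widest gap between fractions (27.7 against 45.7 CPM on average without treatment), Ldha a small and tight one (1156 against 1361 CPM), and most other panels lie nearly level.

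The treatment comparison asks what N1-AcSpd changed within each fraction. In CD34− progenitors edgeR called 0 of the 10 genes, where 0.614% of all genes were called. Unadjusted edgeR p was under 0.05 for 2 of them, and for 2592 of all 19049 genes. DESeq2 also called 0 of the 10, against 558 of all genes. Hk2 was higher after N1-AcSpd in 4 of 4 mice, with a log2 difference of 0.37 (SE 0.15, adjusted p 0.308 by edgeR) and overlapping groups. Pfkp was lower in 4 of 4 mice, with a log2 difference of -0.16 (SE 0.058, adjusted p 0.244 by edgeR), and its groups overlapped through mouse 1. Pgk1 was lower in 4 of 4 mice too, with a log2 difference of -0.12 (SE 0.060, adjusted p 0.423 by edgeR). Ldha was flat, with a log2 difference of 0.018 (SE 0.032, adjusted p 0.902 by edgeR) and approximate 95% bounds of -0.045 and 0.082. None of the 10 had groups without overlap, against 9.05% of all genes.

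In CD34+ HFSCs edgeR again called 0 of the 10, where 0.325% of all genes were called. Unadjusted edgeR p was under 0.05 for 4 of the 10, and for 2505 of all 19049 genes. DESeq2 called 2 of the 10, against 423 of all genes. The fit with mouse as a replicate block called 1, against 152 of all genes. The median log2 fold change was 0.077 over the 10 genes and -0.014 over all genes, with 9 of 10 values above 0. Leaving out the treated CD34+ library of mouse 4 gave a median of 0.040, leaving out that of mouse 2 gave 0.12, and without mouse 2 altogether it was 0.12. Ldha was higher after N1-AcSpd in 4 of 4 mice and its groups did not overlap (1 of 10 genes, against 6.81% of all genes). Its log2 difference of 0.14 (SE 0.032, adjusted p 0.0893 by edgeR) did not pass, but passed with mouse as a replicate block (log2 0.14, SE 0.021, edgeR adjusted p 0.0156) and in DESeq2 (0.16, SE 0.033, DESeq2 adjusted p 0.000155). Pkm was higher in 4 of 4 mice with a log2 difference of 0.098 (SE 0.034, adjusted p 0.246 by edgeR) and passed in DESeq2 only (0.11, DESeq2 adjusted p 0.0231). Slc2a1 had a log2 difference of 0.18 (SE 0.081, adjusted p 0.359 by edgeR) and Aldoa a log2 difference of 0.11 (SE 0.043, adjusted p 0.316 by edgeR), higher in 4 and 3 of 4 mice.

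**Figure D4:**
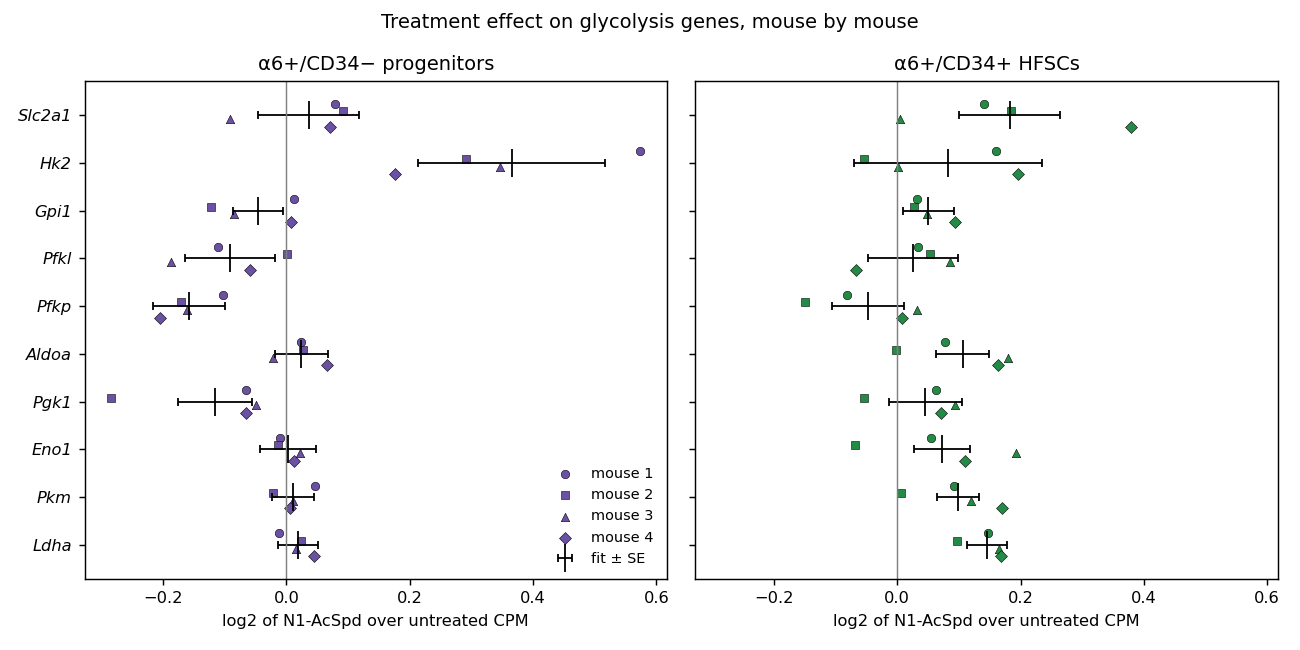
Log2 ratio of N1-AcSpd to untreated CPM for the 10 genes within each mouse (symbols) and the edgeR fold change with bars of 1 SE (black), for CD34− progenitors on the left and CD34+ HFSCs on the right. Ldha lies near 0 in progenitors (0.018) and at 0.14 in HFSCs, where all 4 mice lie above 0, and Hk2 is spread over 0.18 to 0.57 in progenitors.

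The interaction, which tests whether the treatment effect differs between the fractions, called 0 of the 10 genes in edgeR, with 0 (0%) called among all 19049 genes and 799 at an unadjusted p under 0.05. DESeq2 called 72 of all genes and none of the 10. Ldha had the smallest unadjusted p of the 10 (log2 difference 0.13, SE 0.046, edgeR adjusted p 1.00), positive in 4 of 4 mice. Slc2a1, Gpi1, Pfkp, Pgk1 and Pkm were positive in 4 of 4 mice as well, and Hk2, at -0.28 (SE 0.21), was negative in 3. These differences did not pass, so the larger Ldha value in HFSCs was not shown to differ from that in progenitors.

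Of 19 other glycolysis enzymes and isozymes 13 could be tested. In untreated cells 3 were called higher and 4 lower in HFSCs, against 16.1% of all genes in each direction. The median log2 fold change of the 13 was 0.17, against 0.022 for all genes. The median and the counts differ in direction. Slc2a3, a neuronal-type glucose transporter, was lower, at 162 ± 13.7 CPM in CD34− and 88.0 ± 7.85 CPM in CD34+ cells (SD, n = 4), with a log2 difference of -0.88 (SE 0.083, adjusted p 3.15e-06 by edgeR). Gapdh, which makes the pathway's NADH, was lower with a log2 difference of -0.23 (SE 0.047, adjusted p 0.00173 by edgeR), and Pgam1, the mutase between Pgk1 and enolase, with a log2 difference of -0.23 (SE 0.040, adjusted p 0.000562 by edgeR). Gapdhs, the sperm-type form of Gapdh, was lower with a log2 difference of -1.05 (SE 0.092, adjusted p 1.89e-06 by edgeR) and was also the 1 gene of this list called for treatment in CD34− cells, where it was higher with a log2 difference of 0.55 (SE 0.090, adjusted p 0.0188 by edgeR). Copies of these 4 genes were not searched. Hk1, Aldoc and Eno3 were the 3 that were higher. In N1-AcSpd cells 3 were called higher and 3 lower, against 16.5% and 16.8% of all genes. Slc2a3 (log2 -0.88) and Gapdhs (-1.345) passed there too, as did Hk1 and Aldoc. Gapdh did not pass there (log2 -0.12, SE 0.047, adjusted p 0.0658 by edgeR). Neither did Pgam1 (-0.088, SE 0.040, adjusted p 0.113 by edgeR) or Eno3. Hk3, Hkdc1, Pgk2, Pgam2, Eno2 and Pklr did not reach a mean count of 5.

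Of 10 genes for fructose 2,6-bisphosphate, the activator of phosphofructokinase, and for gluconeogenesis, 7 could be tested. In untreated cells 0 were called higher and 2 lower in HFSCs, against 16.1% of all genes in each direction. The median of the 7 was -0.27, against 0.022 for all genes. Pck2, the mitochondrial phosphoenolpyruvate carboxykinase, was lower with a log2 difference of -0.62 (SE 0.077, adjusted p 3.61e-05 by edgeR), and Pfkfb2, which makes fructose 2,6-bisphosphate, with a log2 difference of -0.51 (SE 0.15, adjusted p 0.0174 by edgeR). In N1-AcSpd cells 1 was called higher and 2 lower, against 16.5% and 16.8% of all genes. Fbp1, Fbp2 and Pck1 did not reach the count limit.

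Of 20 genes that handle lactate and pyruvate 18 could be tested. In untreated cells 6 were called higher and 2 lower in HFSCs, against 16.1% of all genes in each direction. The counts were the same in N1-AcSpd cells, against 16.5% and 16.8% of all genes. The medians of the 18 were -0.00083 and 0.080, and those of all genes 0.022 and -0.0068. Ldhb, the subunit of lactate dehydrogenase that favours the step from lactate to pyruvate, was higher, at 8.38 ± 1.05 CPM in CD34− and 16.8 ± 0.922 CPM in CD34+ cells (SD, n = 4), with a log2 difference of 1.00 (SE 0.087, adjusted p 1.78e-06 by edgeR), opposite to Ldha. Mpc1, a subunit of the carrier that takes pyruvate into mitochondria, went from 37.5 ± 1.47 to 63.6 ± 3.39 CPM (SD, n = 4), with a log2 difference of 0.76 (SE 0.045, adjusted p 1.85e-07 by edgeR). Pdk3, a kinase that turns pyruvate dehydrogenase off, was higher with a log2 difference of 0.31 (SE 0.074, adjusted p 0.00502 by edgeR). Me1, the malic enzyme that makes pyruvate and NADPH, was lower with a log2 difference of -0.996 (SE 0.16, adjusted p 0.000325 by edgeR). Of 3 carriers of lactate and pyruvate across the cell membrane, named after their values were seen, Slc16a1 and Slc16a3 did not pass, with a log2 difference of -0.083 (SE 0.10, adjusted p 0.620 by edgeR) and a log2 difference of -0.17 (SE 0.095, adjusted p 0.197 by edgeR). The third, Slc16a7, was higher but low in level, at 0.307 ± 0.155 CPM in CD34− and 0.892 ± 0.105 CPM in CD34+ cells (SD, n = 4), with a log2 difference of 1.53 (SE 0.55, adjusted p 0.0466 by edgeR). In N1-AcSpd cells Slc16a7 did not pass (log2 1.09, SE 0.53, adjusted p 0.141 by edgeR). The other called genes of the list in untreated cells were Mpc2 and the kinase Pdk2, higher, and Pdha1, a subunit of pyruvate dehydrogenase, lower. Pdk2 was low in level too, at 0.577 ± 0.201 CPM in CD34− and 1.415 ± 0.264 CPM in CD34+ cells (SD, n = 4). Ldhc and Pdk4 did not reach the count limit, and no gene of the list was called for treatment in either fraction.

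**Figure D5:**
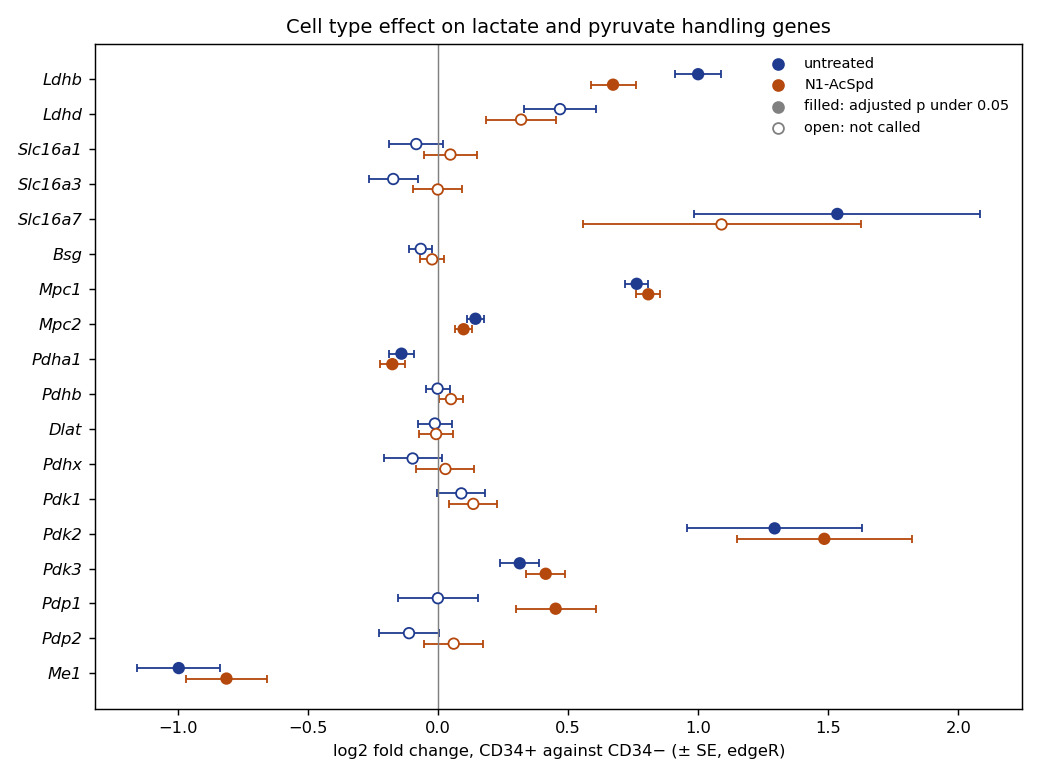
Log2 fold change between α6+/CD34+ and α6+/CD34− cells for the 18 tested genes of lactate and pyruvate handling, with bars of 1 SE, in untreated and N1-AcSpd-treated cells. Slc16a7 (1.53 without treatment), Pdk2 (1.29), Ldhb (1.00) and Mpc1 (0.76) lie to the right, Me1 (-0.996) to the left, and the lactate carriers Slc16a1 and Slc16a3 near 0. Slc16a7 and Pdk2 were both low in level.

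Of 11 regulators of glycolytic genes 9 could be tested, and 1 was called higher and 1 lower in HFSCs in both conditions. Of all genes, 16.1% were called in each direction in untreated cells, and 16.5% higher and 16.8% lower in N1-AcSpd cells. The median of the 9 was -0.034 in untreated and 0.17 in N1-AcSpd cells. Txnip, a glucose-responsive inhibitor of glucose uptake, was higher with a log2 difference of 1.59 (SE 0.36, adjusted p 0.00366 by edgeR), and Myc was lower with a log2 difference of -0.22 (SE 0.074, adjusted p 0.0366 by edgeR). Mlxipl and Esrrb did not reach the count limit. Of 15 other targets of hypoxia signalling all could be tested. In untreated cells 2 were called higher and 3 lower (median -0.093), against 16.1% of all genes in each direction. In N1-AcSpd cells 5 were called higher and 1 lower (median 0.036), against 16.5% and 16.8% of all genes. Adm, which encodes the peptide adrenomedullin, was lower with a log2 difference of -0.91 (SE 0.14, adjusted p 0.000230 by edgeR) and the mitochondrial protein gene Higd1a with a log2 difference of -0.23 (SE 0.053, adjusted p 0.00390 by edgeR). Car9, the carbonic anhydrase at the cell surface, was higher with a log2 difference of 0.85 (SE 0.24, adjusted p 0.0143 by edgeR) and the collagen hydroxylase subunit P4ha1 with a log2 difference of 0.23 (SE 0.080, adjusted p 0.0408 by edgeR). Adm, Car9 and P4ha1 passed in the same direction in N1-AcSpd cells, and Higd1a did not (log2 -0.062, SE 0.053, adjusted p 0.434 by edgeR). None of the 15 was called for treatment.

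The genes whose profile over the 16 libraries lay closest to Ldha were found by the root mean square difference of centred log2 CPM among 9496 named genes. Pgam1 was closest, at 0.029, where Ldha itself varied by 0.11. D8Ertd738e (0.042), Tomm6 (0.045), Tomm40 (0.048) and Mrps25 (0.049) followed. Closest to the mean profile of the 10 genes, which varied by 0.071, were Pkm (0.039) and Aldoa (0.044), both among the 10, then Bsg (0.045), the chaperone of the lactate carriers, Tpi1 (0.045), the triose phosphate isomerase, and Mif (0.046). The libraries share mice, fractions and depth, and the ranking is a description.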

How the data were processed

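The study separated reads of a 3′ protocol with unique molecular identifiers (UMIs) by barcode with FLEXBAR, placed them on mm10 with Kallisto (version 0.45.0 in the submitters' processing notes), assigned them with BEDTools and counted unique UMIs per gene. The deposited values are these raw counts, and 156050 empty cells were read as 0. The annotation release is not given in the sources used here. Totals were 15480075 to 29074855 UMIs per library, which limits the precision of low genes.

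Here, edgeR 4.0.16 (R 4.3.3; TMM, quasi-likelihood, 16 libraries in 1 fit) tested the 19049 genes averaging 5 or more counts, and genes were called at a Benjamini-Hochberg adjusted p under 0.05, with SE taken as the log2 difference over the root of the F statistic. Adjusted p-values run over all tested genes. DESeq2 1.42.0 was an alternative, beside other scalings, filters, groups, a replicate block and leaving out libraries or mice. The labels' mouse entry ties each replicate number to 1 animal, and same-mouse libraries deviated from their group means with a mean r of 0.028 (-0.112 to 0.128, 24 pairs). The main fit has no term for mouse. With the replicate block the SE between untreated fractions was smaller for every member, for Ldha 0.021 against 0.032. Copies were found by BLAST among GENCODE M21 transcripts of GRCm38 (the assembly also called mm10), and only copies matching over at least 300 bases elsewhere were summed, a limit set after the matches were seen. Promoters are RefSeq's. The procedure was tested on simulated data. Members and lists were chosen with earlier results of these data known. All members are named, and from each other list up to 4 genes called between untreated fractions with the smallest adjusted p. A gene of the list of other glycolysis enzymes is not reported here.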

Additional observations from a re-analysis of the deposited data

Results flagged for a closer look

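In 40 sets of 4 libraries (10 genes in 4 groups), 2 had 1 library far from the other 3, where chance gives about 1 in 20. Both lie in N1-AcSpd CD34− cells. Pfkp stood at 79.0 CPM in mouse 1, against 68.4 to 68.8 CPM in mice 2 to 4. Ldha stood at 1457 CPM in mouse 4, against 1348 to 1357 CPM in mice 1 to 3. Without that Ldha library the log2 fold change between the treated fractions was -0.082 and no longer called (edgeR adjusted p 0.0587), and without any other single library of the 16 the call was lost in 2 cases, given with Ldha above. The cause was not tested.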

How the results depend on the processing

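With an absolute log2 fold change over 0.5 asked in addition, 1 of the 10 genes remained called between the fractions in untreated and 1 in N1-AcSpd cells, Hk2 in each. For treatment in CD34+ cells 0 genes were called, against 1 with mouse as a replicate block and 2 in DESeq2. Leaving out single libraries or mice gave 3 to 6 called genes in untreated and 3 to 5 in N1-AcSpd cells for the fractions, and 0 in each other comparison. The replicate block changed no call other than those given for Aldoa, Eno1, Gpi1 and Ldha. Library totals, whose median of all genes is 0.14 and 0.11, turned the sign of Gpi1 (0.11), Pfkl (0.032) and Aldoa (0.0054) in untreated cells and of Aldoa (0.089), Eno1 (0.064), Pkm (0.083) and Ldha (0.0080) in N1-AcSpd cells. Copies summed in turned Gpi1 (0.019) and Eno1 (0.036) between untreated fractions, Gpi1 (0.022) for treatment in CD34− cells, and Eno1 for treatment in CD34+ cells (-0.20) and for the interaction (-0.34). Eno1b was at 0 in untreated CD34− mouse 4 and N1-AcSpd CD34+ mice 1 and 4, and Gm1840, the copy of Gpi1, in 6 libraries. The part of these zeros in the turned signs was not tested. Eno1 for treatment in CD34− cells, 0.0031, was -5.8e-05 without a low-count filter and -0.00019 with only the compared groups. Over the leave-out runs signs turned for Gpi1 between untreated fractions (-0.032 to 0.014), Aldoa between N1-AcSpd fractions (-0.068 to 0.011), for treatment in CD34− cells of Slc2a1 (-0.0082 to 0.086), Eno1 (-0.020 to 0.023), Pkm (-0.0022 to 0.025) and Ldha (-0.0093 to 0.037), and for treatment in CD34+ cells of Pfkl (-0.019 to 0.074) and Pgk1 (-0.0042 to 0.10). None of these leave-out sign changes concerned a called value. Other causes were not tested.

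Over all genes, counts varied more. The treatment effect called 117 genes in CD34− cells, against 351 with the replicate block, 558 in DESeq2, 35 without a filter, 27 with the fold limit, 0 with only the compared groups (2645 at an unadjusted p under 0.05) and 4 to 158 in leave-out runs. In CD34+ cells it called 62, against 152, 423, 35, 19, 23 and 3 to 73. The interaction called 0, DESeq2 72 and leave-out runs up to 11. The fold limit left 2913 of 6123 and 3197 of 6347 genes between the fractions. Higher genes made up 73.4% of calls with library totals against 49.96% in untreated cells, 71.6% against 49.6% in N1-AcSpd cells, and for treatment in CD34+ cells 70.7% with DESeq2 size factors and 75.4% in DESeq2 against 58.1%.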
